A study of Mus musculus with 10 samples.

Results

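The shLuc EBs of day 6 and day 10 were compared in 1 RNA-Seq library each, 2 of the 10 libraries of the study. Both came from R1 mouse ES cells that carried a short hairpin RNA against luciferase, which has no target in mouse cells and serves as the control. Per the labels, ES cells for RNA-Seq were passaged on gelatin with the GSK3 inhibitor CHIR9901 so that feeders were lost, and EBs formed in low attachment dishes without LIF. EBs hold a mixture of cell types, and in such bulk samples fewer cells of a type and less RNA per cell cannot be told apart. The other shLuc libraries (ES cells, EBs of 24 h and of day 14) and the EBs with a hairpin against Smyd5 (shSmyd5) at day 6 and day 10 are given only beside the values they touch. Each condition had 1 library, so no difference has a replicate check and no p-value is given.

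Levels are in RPKM, that is read counts divided by transcript length and by library size. The fold is the day 10 RPKM over the day 6 RPKM on the log2 scale, with 0.1 added to each. Each fold carries an exact binomial 95% interval based on the gene's own reads in the 2 libraries. That interval holds counting error alone and compares libraries, not days. Of 22878 genes, 10779 reached an RPKM of 3 on at least 1 of the days and 12099 did not. Coordinates are on mm9.

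Aggregates of mouse ES cells first pass through a state like the epiblast of the embryo and then form germ layer derivatives. Their outer layer becomes visceral endoderm, the tissue that in the yolk sac takes up and secretes carriers of lipid, iron and vitamins before the liver does so. Mesoderm gives the primitive red cells, the endothelium that lines the first vessels, heart muscle and connective tissue, and ectoderm gives neural progenitors. The question the comparison addresses is which of these programs were higher and which earlier ones were lower once the EBs had grown for a further period.

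Of the 10779 genes, 2944 (27.3%) were at least 2-fold higher at day 10, 1063 (9.86%) were at least 2-fold lower and 6772 (62.8%) lay between. The whole interval lay past 2-fold in 2545 of the higher and 832 of the lower genes. Larger differences were also more often upward. At least 4-fold, 998 genes were higher and 227 lower, at least 16-fold 187 and 16, and at least 64-fold 35 and 0. The median log2 fold was 0.30, so part of the excess of higher genes depended on the scaling. TMM moved every log2 fold by -0.29 and gave 2159 higher and 1684 lower genes, with 56.2% of them higher against 73.5% in RPKM, and DESeq2 size factors gave 55.6%. Among the higher genes, 460 had an RPKM under 1 at day 6, and 68 of those reached at least 10 at day 10. Among the lower genes, 92 had an RPKM under 1 at day 10. In the shLuc EBs of 24 h, 30.3% of the higher genes and 83.7% of the lower genes had an RPKM of at least 3, against 67.3% of the 10779 genes. In the shLuc ES cells the shares were closer, at 65.3% of the higher genes, 72.2% of the lower genes and 78.1% of the 10779.

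**Figure D1:**
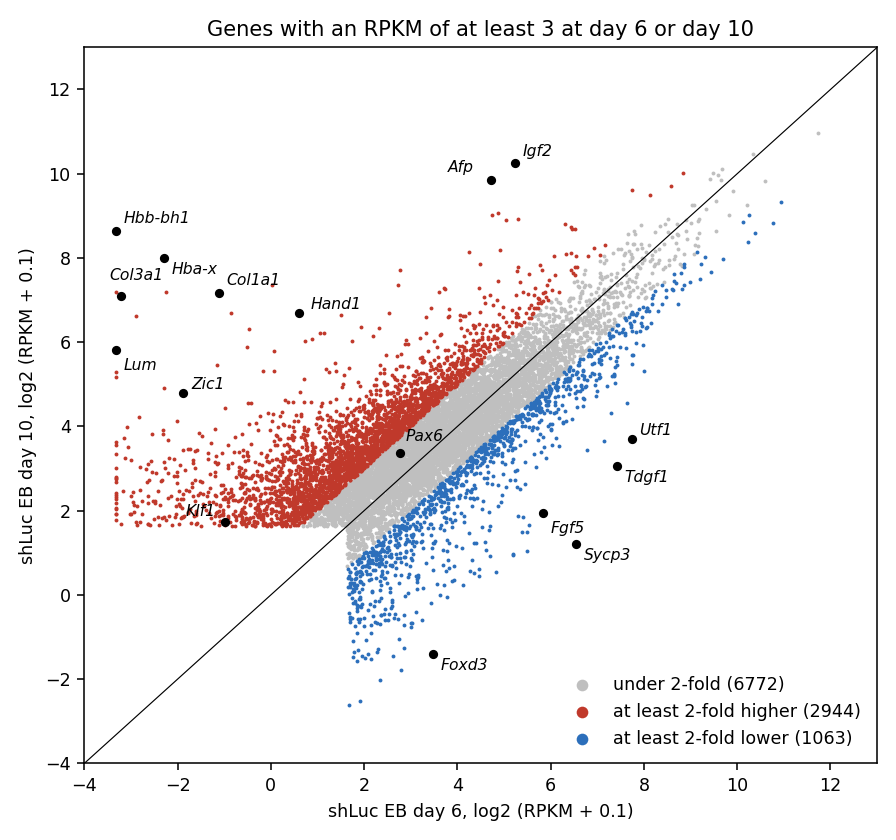
Each point is 1 of the 10779 genes that reached an RPKM of 3, with log2 (RPKM + 0.1) in the shLuc EBs of day 6 across and of day 10 up, and the line marks equal levels. The 2944 genes at least 2-fold higher are in red and the 1063 at least 2-fold lower in blue. Globin and collagen genes lie at the left edge, Afp and Igf2 near the top, and Sycp3, Tdgf1, Utf1 and Foxd3 lie farthest below the line among the named genes.

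The fold also followed base composition. Across the 10337 genes with a known GC content, which are not independent replicates, its rank correlation with GC was 0.531. In 10 groups of genes ordered by GC the median log2 fold went from -0.59 (median GC 40.3%) to 1.26 (60.1%), and the percentage at least 2-fold higher went from 4.55% to 61.2%. The shSmyd5 libraries of the same days showed the trend as well, with a rank correlation of 0.356. With the trend on GC and transcript length taken off, 1829 genes were higher (17.7%) and 718 lower (6.95%). Of the called genes with a known GC content, 1557 of 2804 higher (55.5%) and 487 of 983 lower (49.5%) stayed past 2-fold. The 1829 and 718 therefore include genes that were not called before. Of the genes at least 4-fold higher 883 of 916 stayed past 2-fold, and of those at least 4-fold lower 192 of 205 did. For the groups of genes below, the median without this trend is given in the text or in the plot of folds by list. Whether the trend came from the cells or from the libraries was not tested.

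**Figure D2:**
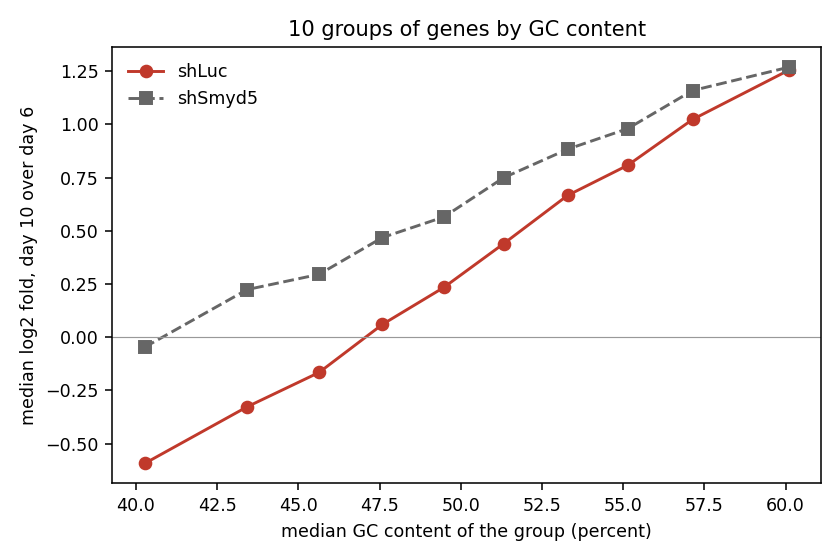
The median log2 fold of day 10 over day 6 is plotted for 10 groups of genes of equal size against each group's median GC content (percent), with circles for shLuc and squares for shSmyd5. In shLuc the groups climb from -0.59 to 1.26, and in shSmyd5 from -0.05 to 1.27.

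A filter on the level sets part of these counts. Of the 10779 genes, 1723 passed through day 10 alone and 528 through day 6 alone, and a gene that passed on the day when it is high had to differ. Counts over the members that passed are therefore a description. They stand beside 27.3% higher and 9.86% lower of all 10779 genes. Through day 10 alone passed 8 of 10 erythroid regulators, 16 of 20 endothelial genes, 17 of 21 mesenchyme genes and all 7 globins. Counts over every measured member, whatever its level, stand beside 5096 higher and 1767 lower of all 22878 genes. In shSmyd5 the latter were 6217 and 1682. Medians over every measured member, including those at 0, were 0.03 for all genes, 2.84 for the erythroid regulators, 2.74 for the endothelial genes and 3.84 for the heart and mesoderm factors. They were 3.79 for mesenchyme, 2.15 for the Hox genes, 2.18 for the Wnt list and -1.43 for the germline genes.

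The 3 genes that mark endoderm, neural and erythroid cells gave an uneven check of the label. Afp, the fetal albumin homolog made by visceral endoderm and fetal liver (chromosome 5, 90919740 to 90937933), went from an RPKM of 26.1 at day 6 to 922 at day 10, a log2 fold of 5.14 (5.09 to 5.19). Klf1, the erythroid transcription factor that drives globin expression (chromosome 8, 87425827 to 87429194), had 40 reads at day 6 and 151 at day 10, an RPKM of 0.404 and 3.23, and a log2 fold of 2.73 (2.29 to 3.16). Pax6, a transcription factor of neural and eye progenitors (chromosome 2, 105509053 to 105543317), had an RPKM of 6.72 and 10.2. Its log2 fold of 0.60 (0.47 to 0.72) was under 2-fold. Smyd5 itself had an RPKM of 15.4 at day 6 and 25.0 at day 10, a log2 fold of 0.70 that came to 0.05 without the GC trend.

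Globin genes took 5 of the 12 highest folds, ranked over genes that reached an RPKM of 10. These genes encode the oxygen carrier of red cells, and the embryonic forms (zeta-like Hba-x, epsilon-like Hbb-y and beta-like Hbb-bh1) belong to the primitive red cells of the yolk sac. Each of the 7 globin genes in the list with a value was at least 2-fold higher, with a median log2 fold of 9.44 (9.21 without the GC trend). Hbb-bh1 (chromosome 7, 110990150 to 110991678) had 0 reads at day 6 and 7457 at day 10, where its RPKM was 401. Against a floor of 3 reads in the day 6 library it was at least 5270.0-fold higher. Hba-x (chromosome 11, 32176400 to 32178116) had 4 reads and then 4641, an RPKM of 0.103 and 254, and a log2 fold of 10.29 (9.44 to 10.95). Hbb-y (chromosome 7, 111000259 to 111001754) had 0 reads and then 736, an RPKM of 39.0 at day 10 and at least a 520.1-fold difference over the same floor. The adult alpha genes Hba-a1 (0 and 2505 reads) and Hba-a2 (4 and 2507) share reads, because their sequences are nearly identical, and count as 1 signal. In the shLuc EBs of day 14 the levels lay below those of day 10, at 22.9 for Hbb-bh1, 48.8 for Hba-x and 27.5 for Hbb-y, in 1 library.

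The upstream promoters of 2 of these globins and of Afp are shown, since both globins are embryonic forms and Afp is the endoderm marker. They come from RefSeq (GRCm38.p6), cover the 250 bases before the start of the gene and run 5′ to 3′ on the gene's strand. Hba-x lies at chr11:32276350-32276599 on the plus strand, Hbb-y at chr7:103853208-103853457 on the minus strand and Afp at chr5:90490464-90490713 on the plus strand. Hbb-bh1 is named only. Capitals mark, on either strand, the GATA motif GATAA and the CACCC motif CCACCC in the globins, the core of the HNF1 motif GTTAAT in Afp, and ATAAA, the letters of a TATA box, in the 3 genes, wherever it lies.
Hba-x: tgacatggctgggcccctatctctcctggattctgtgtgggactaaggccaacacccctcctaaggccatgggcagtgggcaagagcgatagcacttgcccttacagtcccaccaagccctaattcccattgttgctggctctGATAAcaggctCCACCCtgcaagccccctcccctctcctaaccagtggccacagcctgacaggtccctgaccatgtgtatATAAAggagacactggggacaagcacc
Hbb-y: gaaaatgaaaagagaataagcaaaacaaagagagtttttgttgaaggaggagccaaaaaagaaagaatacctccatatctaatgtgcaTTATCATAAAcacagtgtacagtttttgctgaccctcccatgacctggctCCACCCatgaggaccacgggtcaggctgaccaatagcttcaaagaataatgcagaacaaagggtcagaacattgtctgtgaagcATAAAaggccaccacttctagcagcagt
Afp: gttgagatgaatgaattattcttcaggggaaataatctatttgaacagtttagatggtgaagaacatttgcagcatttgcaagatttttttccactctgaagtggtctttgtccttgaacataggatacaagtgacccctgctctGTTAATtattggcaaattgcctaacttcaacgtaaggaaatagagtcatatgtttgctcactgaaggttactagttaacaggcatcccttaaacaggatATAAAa
Hba-x held GATAA at position -107, CCACCC at -96 and ATAAA at -27, counted back from the start of the gene. Hbb-y held the reverse complement TTATC at -162 followed directly by an ATAAA at -157, CCACCC at -112 and a second ATAAA at -28. Afp held GTTAAT at -105 and ATAAA at -6. Of 32851 promoters of this length, 22.6% held GATAA, 28.1% CCACCC, 6.43% GTTAAT and 37.3% ATAAA on either strand. A match is a run of letters and no measure of binding.

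Genes of the red cell lineage beside the globins were low but mostly higher at day 10. Of 24 erythroid regulators and surface proteins, 10 had an RPKM of at least 3, of which 9 were at least 2-fold higher and 0 lower (median log2 fold 3.10, and 2.93 without the GC trend). The other 14, among them Slc4a1 and Epor, did not reach that level. Gata1, the master regulator of erythroid genes, had an RPKM of 0.0600 and 4.41, a log2 fold of 4.82 (4.31 to 5.21). Nfe2, which acts on the globin loci, had 0.0743 and 4.63, and Sox6, a late erythroid repressor that other tissues also use, 0.117 and 4.82. Like the globins, Gata1 (1.33) and Nfe2 (1.84) had a lower RPKM again at day 14. Sox6 at day 14 was 4.08.

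Heme synthesis supplies the globins. Of the 11 genes of the pathway, 6 were at least 2-fold higher and 0 lower (median 1.16, and 0.77 without the GC trend). Over all genes 27.3% were higher and 9.86% lower. Alas2, the erythroid form of the rate-limiting enzyme, had an RPKM of 0.164 and 4.71, a log2 fold of 4.19 (3.74 to 4.61). Alad (7.12 and 23.1) and Ppox (2.08 and 6.87) encode later steps and were 1.68 and 1.67 higher on the log2 scale. Ppox came to 0.92 without the GC trend, under 2-fold. Genes of other blood lineages were low. Of 18 megakaryocyte and platelet genes 7 reached an RPKM of 1 at day 10 and 0 at day 6, 16 were at least 2-fold higher by fold alone, and the median over the 18 was 2.62. Of all 22878 genes, 12547 reached that RPKM at day 10 and 11466 at day 6, and 5096 were higher by fold alone. The only platelet gene that passed the filter was Itgb3, the integrin subunit that platelets share with other cells (0.220 and 3.58). Of 26 macrophage and myeloid genes, with a median of 0.45 over the 26, 2 passed, Fcgr3, an Fc receptor (0.332 and 3.18), and the lysosomal protein Cd68 (9.68 and 3.71).

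Endoderm genes were mostly higher. Of 25 yolk sac and liver carriers, 15 had an RPKM of at least 3 and each of these 15 was at least 2-fold higher, with a median log2 fold of 4.11 (3.99 without the GC trend), against 27.3% higher and a median of 0.30 over all genes. The 10 that did not pass included Alb and the serpins, products of the mature liver. Apoa2, an apolipoprotein of HDL, had an RPKM of 1.75 and 66.9, a log2 fold of 5.17 (4.81 to 5.55). Trf, the iron carrier transferrin, had 2.09 and 74.7, and F2, the clotting factor prothrombin, 0.148 and 7.02. Afp was the 9th highest of 22878 genes by RPKM at day 10, from rank 2306 at day 6.

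Visceral endoderm takes up its cargo through receptors. The list of this tissue holds some of these beside other genes, such as a ligand and a transcriptional coregulator. Of 13 genes that passed, 11 were at least 2-fold higher and 0 lower (median 2.47, and 2.43 without the trend). The 2 within 2-fold were the receptor Lrp2 and Slc39a8. Amn, the partner of cubilin in vitamin B12 uptake, had an RPKM of 2.76 and 30.6, a log2 fold of 3.42 (3.25 to 3.60). Ihh, the hedgehog ligand that visceral endoderm sends to the mesoderm, had 0.520 and 10.4. Cited1, a transcriptional coregulator, had 7.36 and 66.8, and the chloride channel protein Clic6 had 9.91 and 74.7. At day 14 Cited1 (87.8) lay above its day 10 level, whereas Amn (11.3), Ihh (5.41) and Clic6 (48.2) lay below.

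Of 13 endoderm transcription factors 10 were at least 2-fold higher and 1 lower (median 2.24, and 1.61 without the trend). Of the 13, 7 passed through day 10 alone. Over the 18 measured members the median was 2.00, with 14 higher and 1 lower, against 5096 and 1767 of all 22878 genes. Sox17, a driver of endoderm fate that endothelium also uses, had an RPKM of 1.29 and 10.8, a log2 fold of 2.97 (2.78 to 3.16). Hnf4a, a nuclear receptor needed for the secreted carriers, had 2.56 and 16.1, and Gata6, the zinc finger factor at the head of primitive endoderm, 3.59 and 21.9. Cdx2, which acts in trophoblast and hindgut, had 0.224 and 10.6. Elf3, an epithelial ETS factor, was the member on the lower side, at 14.5 and 6.88. Of 17 gut and stomach genes 3 passed, 2 of them through day 10 alone, and the median over the 17 was 1.10, with 9 higher and 0 lower. The 3 were the trefoil peptide Tff3 (0.169 and 10.7), the microvillus protein Vil1 (0.964 and 11.6) and the lectin Lgals2 (7.25 and 61.7).

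Basement membrane genes had a median of 1.52 (1.08 without the trend). Of 15 that passed, 12 were at least 2-fold higher and 1 lower. Collagen IV, the network of this membrane, was represented by Col4a2 (9.87 and 96.6) and Col4a1 (22.1 and 156), log2 folds of 3.28 and 2.82 that came to 1.99 and 1.74 without the GC trend. The laminin chains Lama4 (0.149 and 4.75), of vessels, and Lamb2 (1.50 and 14.0) were higher by 4.29 and 3.14. Srgn, a proteoglycan of parietal endoderm and blood cells, was the lower member at 24.7 and 8.29, with a log2 fold of -1.57 that came to -0.48 without the trend.

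**Figure D3:**
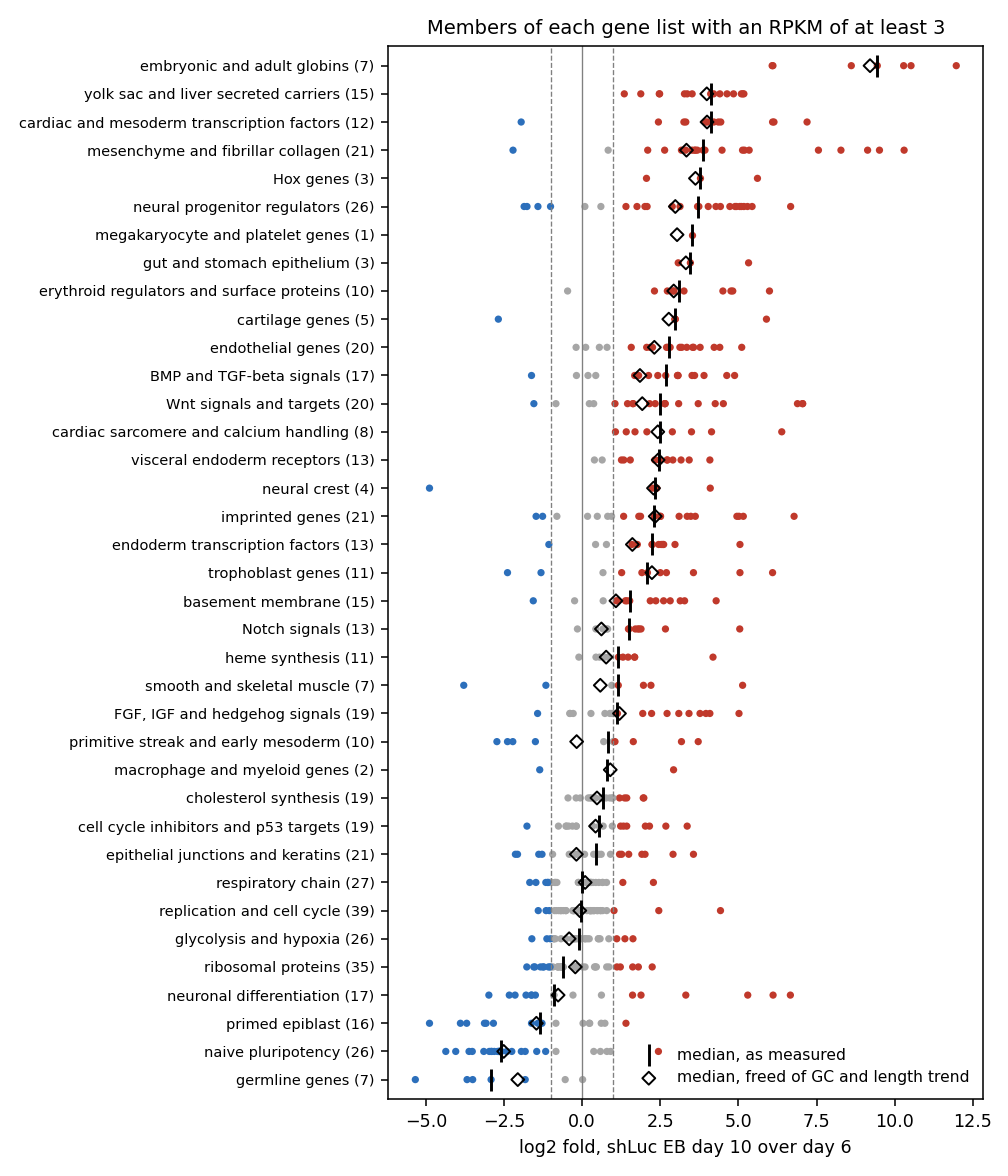
Each point is a member of 1 of 37 gene lists with an RPKM of at least 3 at day 6 or day 10, placed by its log2 fold of day 10 over day 6, in red if at least 2-fold higher, blue if at least 2-fold lower and gray if between (dashed lines). Bars mark the median of the list as measured and diamonds the median without the GC and length trend, and the number of members is in brackets. Globins, secreted carriers, heart and mesoderm factors and mesenchyme stand at the top, and primed epiblast, naive pluripotency and germline genes at the bottom.

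Fibrillar collagen and other products of connective tissue took another 5 of the 12 highest folds. Of 21 mesenchyme genes 19 were at least 2-fold higher and 1 lower, with a median log2 fold of 3.87 (3.34 without the trend). Col3a1, the collagen of loose connective tissue (chromosome 1, 45368383 to 45406551), had 3 reads at day 6 and 23169 at day 10. The ratio of its reads per library size was 16374, with a counting interval of 5602 to 79404, and its RPKM at day 10 was 137. Col1a1 (chromosome 11, 94797538 to 94814356) and Col1a2 (chromosome 6, 4454814 to 4491543), the chains of type I collagen, had an RPKM of 0.363 and 144 and of 0.449 and 103. Postn, a matrix protein of heart valves and bone surfaces (chromosome 3, 54165031 to 54194961), had an RPKM of 0.0338 and 97.7, with a log2 fold of 9.51 (9.17 to 9.75). Lum, a proteoglycan that orders collagen fibrils (chromosome 10, 97028135 to 97035337), had 0 reads at day 6 and 3544 at day 10, at least 2505-fold more over the floor of 3 reads. Thy1, a surface protein of fibroblasts and neurons, was lower (4.93 and 0.984). At day 14 the collagens had higher values still, with an RPKM of 856 for Col1a1, 857 for Col1a2, 635 for Col3a1, 473 for Lum and 407 for Postn. Fibroblasts, the cell type of the feeders, also make these collagens. In the shLuc ES cells Col1a1 had an RPKM of 0.534 and Col1a2 0.139, and Col3a1, Lum and Postn were listed at 0. The part of feeders in the result was not tested.

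Cartilage genes passed in smaller number. Of 14, 5 had an RPKM of at least 3 on 1 day alone, of which 4 were higher and 1 lower (median 2.97, and 2.77 without the trend). The median over the 14 was 1.82. The cartilage master regulator Sox9 had 1.05 and 8.89, its target Col2a1 2.30 and 18.6, Col11a1 0.617 and 5.56 and the link protein Hapln1, also made in heart valves, 0.116 and 12.8. Col9a3 had 8.76 and 1.28. Aggrecan (Acan) did not pass.

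Transcription factors of the heart and lateral mesoderm were mostly higher at day 10. Of 12 such factors 11 were at least 2-fold higher and 1 lower, with a median of 4.11 (3.995 without the trend). Of the 12, 11 passed through day 10 alone and 1 through day 6 alone, so the filter set their directions. Over the 18 measured members the median was 3.84, with 15 higher and 1 lower, against 5096 and 1767 of all 22878 genes. Nkx2-5 and Tbx5 did not pass. Hand1, a factor of heart, extraembryonic mesoderm and trophoblast (chromosome 11, 57642207 to 57646320), had an RPKM of 1.42 and 104, a log2 fold of 6.09 (5.89 to 6.30). Its relative Hand2 had 0.104 and 29.8, Foxf1a, of mesoderm beside the gut, 0.102 and 14.1, and the heart factor Tbx20 0.551 and 14.0. Wt1, of the epicardium and kidney, was lower at 3.41 and 0.807. Of 25 sarcomere and calcium handling genes 8 passed, 6 of them through day 10 alone, with a median of 2.48 (2.42 without the trend). Over the 25 measured members the median was 1.07, with 15 higher and 1 lower. The slow troponin Tnni1 of the fetal heart had 0.0143 and 9.46, the myosin binding protein Mybpc3 0.104 and 3.50, the atrial light chain Myl4 0.228 and 3.61 and the troponin Tnnc1 0.969 and 7.80. The other 17, among them Myh6, Myh7, Tnnt2 and Ryr2, were under an RPKM of 3.

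Smooth and skeletal muscle genes had mixed directions. Of 7 that passed 4 were higher and 2 lower (median 1.16, and 0.58 without the trend). Acta2, smooth muscle actin, had 2.74 and 99.6, a log2 fold of 5.13 (4.97 to 5.30), Tagln 6.77 and 31.5 and the filament protein Des 1.45 and 5.93. Acta1 had 5.48 and 12.3, and its log2 fold of 1.16 came to 0.58 without the trend and was under 2-fold with TMM. Tnnt1 (6.63 and 0.387) and Cnn1 (4.41 and 1.92) were lower.

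Endothelial genes were higher from low levels. Of 20 that passed 16 were at least 2-fold higher and 0 lower, with a median of 2.78 (2.31 without the trend). Cdh5, the adhesion protein of endothelial junctions, had an RPKM of 0.699 and 16.8, a log2 fold of 4.40 (4.21 to 4.60). Tie1, an orphan receptor of vessels, had 0.116 and 7.33, the junction protein Esam 0.251 and 6.45 and the ETS factor Erg 0.161 and 3.47. Cdh5 was 19.4 at day 14, whereas Tie1 was 2.22, Esam 3.52 and Erg 2.09.

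**Figure D4:**
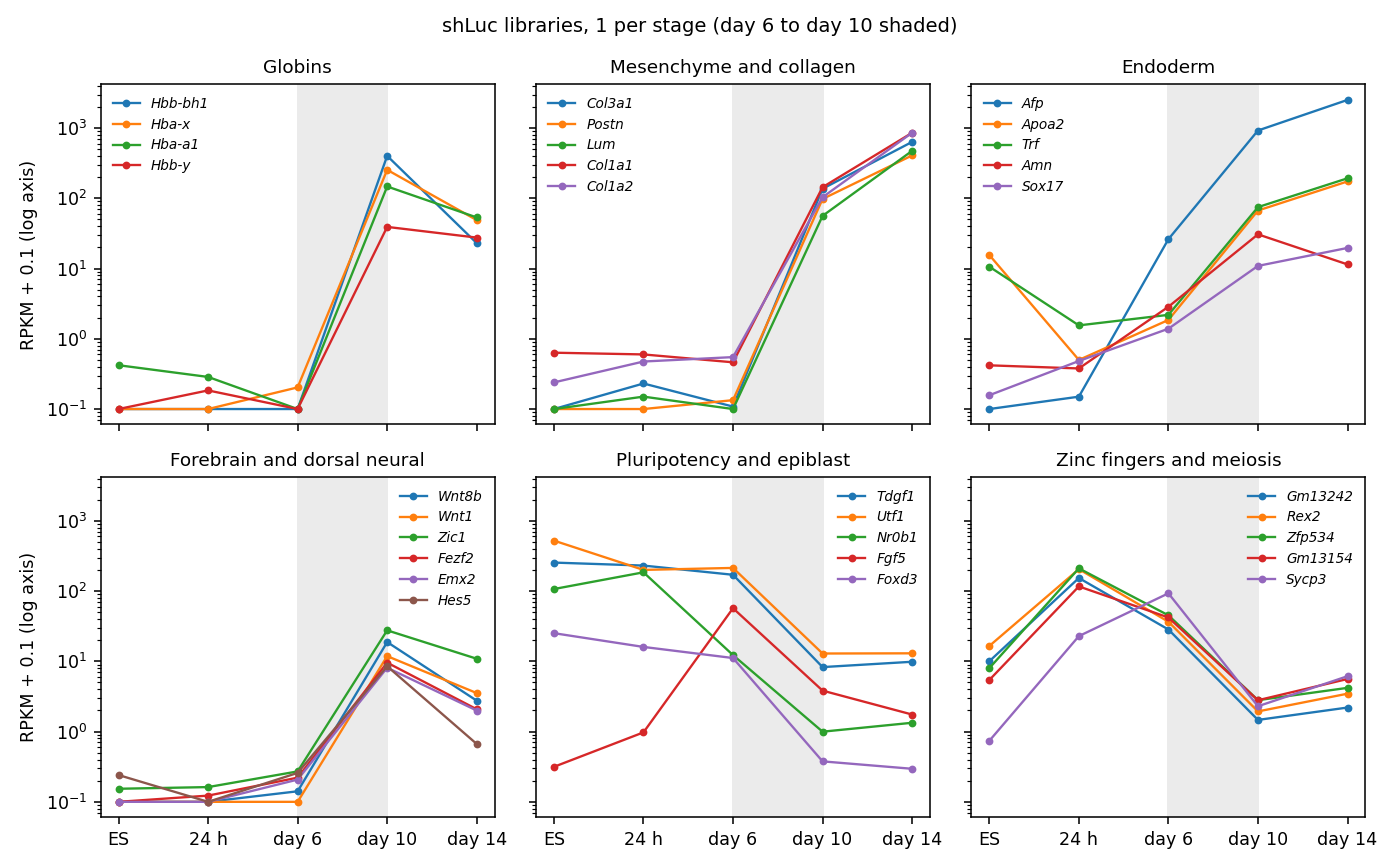
RPKM plus 0.1 on a log axis is drawn for named genes in the shLuc libraries of ES cells and of EBs of 24 h, day 6, day 10 and day 14, with 1 library per point and the step from day 6 to day 10 shaded. Globins and forebrain genes stand highest at day 10, collagens climb on to day 14, and the zinc finger genes of chromosome 4 are highest at 24 h.

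Neural progenitor genes were mostly higher. Of 26 regulators that passed, 17 of them through day 10 alone, 20 were at least 2-fold higher and 4 lower. Their median was 3.71 (2.98 without the trend). Zic1, a zinc finger factor of the dorsal neural tube (chromosome 9, 91252896 to 91260648), had an RPKM of 0.171 and 27.5, a log2 fold of 6.67 (6.36 to 6.97). Fezf2 and Emx2, factors of the forebrain and its cortex, had 0.121 and 9.48 and 0.107 and 8.01. Pax3, of dorsal neural tube and somites, had 0.0280 and 4.52. The lower members were genes that the epiblast also uses, but so is Sox3, which was among the higher ones. Sox2, common to pluripotent and neural cells, had 228 and 62.8, a log2 fold of -1.86 (-1.90 to -1.81), Otx2, of epiblast and anterior brain, 119 and 44.5, and Zic2 and Zic5 101 and 29.7 and 8.11 and 3.97. At day 14 Zic1 had 10.8, Fezf2 1.98, Emx2 1.89 and Pax3 1.71.

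Genes of neurons had mixed directions. Of 17 that passed 6 were higher and 7 lower, with a median of -0.90 (-0.77 without the trend). The sign depended on the filter, since the median was 0.45 at an RPKM of at least 1, 0.16 with reads summed over transcripts and 0.84 over the 40 measured members, of which 19 were higher and 9 lower. Among the highest folds were the peptide hormone Sst (0 reads and an RPKM of 10.0) and the homeobox factors Lhx5 (0.136 and 9.18) and Isl1 (0.405 and 4.93), of which Isl1 also acts in heart progenitors. The lowest were the neurofilament protein Ina (12.8 and 1.53), Ebf1 (4.23 and 0.760), Gad1, which makes the transmitter GABA (7.32 and 1.57), and the RNA-binding protein Elavl2 (19.7 and 5.60). The log2 fold of Elavl2 was -1.80 and came to -0.77 without the trend. The 23 genes under the filter included Dcx, Neurog1 and Neurog2.

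Neural crest and Hox genes passed in small numbers. Of 11 crest genes 4 passed, with Ednrb, the endothelin receptor of crest cells and endothelium (0.338 and 7.40), Tfap2a (0.925 and 5.27) and Ets1 (2.47 and 12.2) higher and Foxd3 lower. The median of these 4 was 2.32 (2.28 over the 3 with a known GC content), and it was -1.32 when an RPKM of 10 was required. Of the 4, 3 passed through day 10 alone and 1 through day 6 alone, which set their directions. Over the 11 measured members the median was 0.99, with 5 higher and 1 lower. Sox10 did not pass. Of 38 Hox genes, which set position along the body axis, 3 passed, among them Hoxb2 (0.1996 and 4.03) and Hoxc8 (0 reads and 4.78). Each of the 3 was higher, but they passed through day 10 alone, so the filter set this direction. Their median was 3.79 (3.62 without the trend). Over the 38 measured Hox genes the median was 2.15, with 30 higher and 0 lower, and 16 reached an RPKM of 1 at day 10. Of all 22878 genes, whatever their level, 5096 were higher and 1767 lower, and 12547 reached that RPKM.

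Pluripotency genes were mostly lower. Of 26 genes in the naive pluripotency list, which are not all specific to that state, 20 were lower by 2-fold or more and 1 higher. Over all genes 9.86% were lower. The median of the list was -2.61 (-2.51 without the trend). Klf4, Tfcp2l1, Sall4, Lin28a and Trim28 lay within 2-fold. Tdgf1, the Nodal coreceptor Cripto (chromosome 9, 110842114 to 110848662), had an RPKM of 170.5 at day 6 and 8.18 at day 10, a log2 fold of -4.37 (-4.50 to -4.24). Utf1, a chromatin protein of ES cells (chromosome 7, 147129688 to 147131011), had 213 and 12.8. The orphan receptor Nr0b1 had 12.2 and 0.897 and Dppa2, an activator of early embryonic genes, 8.60 and 0.660. Pou5f1 (126 and 26.4) and Nanog (71.8 and 11.5), central factors of pluripotency, were chosen after their values were seen and had log2 folds of -2.25 and -2.64. Tbx3 was the higher member (2.91 and 16.2), a gene that heart and limb also use.

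Genes of the primed epiblast were also lower in part. Of 16 epiblast genes 9 were lower by 2-fold or more and 1 higher (median -1.35, and -1.47 without the trend). Fgf5, a growth factor of the epiblast (chromosome 5, 98683203 to 98706049), had been 0.874 at 24 h and went from 56.9 to 3.73, a log2 fold of -3.90 (-4.07 to -3.73). Foxd3, a factor of epiblast and crest (chromosome 4, 99322990 to 99325362), had 11.04 and 0.277, the Nodal inhibitor Lefty2 19.2 and 1.39 and the POU factor Pou3f1 20.4 and 2.25. Sox3 was higher (3.78 and 10.1), but its log2 fold of 1.40 came to -0.082 without the trend.

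Of 10 primitive streak and early mesoderm genes 4 were higher and 4 lower. The median was 0.84, which changed sign to -0.18 without the trend. The T-box factors Eomes (17.4 and 3.24) and T (11.3 and 2.34), the homeobox factor Mixl1 (8.74 and 1.23) and Lhx1 (3.35 and 1.12) were the lower members. The Wnt amplifier Rspo3 (3.09 and 41.7) and the growth factor receptor Pdgfra (1.92 and 18.2), both kept by later mesoderm, and the Wnt targets Axin2 (3.51 and 11.1) and Sp5 (2.14 and 4.54) were the higher ones. Axin2 and Sp5 came to 0.92 and -0.16 without the trend.

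Germline genes held the lowest fold of this ranking. Of 7 that passed 5 were lower by 2-fold or more and 0 higher (median -2.92, and -2.06 without the trend). Sycp3, a protein of the meiotic chromosome axis (chromosome 10, 87922314 to 87935981), had 22.7 at 24 h, 92.8 at day 6 and 2.19 at day 10, a log2 fold of -5.34 (-5.67 to -5.02). The RNA helicase Ddx4 had 8.0003 and 0.530, Mael, of the piRNA pathway, 3.93 and 0.255 and Dppa3 23.1 and 2.97. The germ cell factors Dazl, Nanos3 and Stra8 did not pass.

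A block of zinc finger genes on chromosome 4 was lower together. It gave 5 of the 12 lowest places, with Gm13242, Rex2, Gm13138, Zfp534 and Gm13154 between 145104787 and 147076662. Rex2 and Gm13138 had 9479 and 9476 reads at day 6 and 225 each at day 10 and count as 1 signal, since their transcripts share reads. Their RPKM was 36.5 and 36.7 at day 6 and 1.84 and 1.85 at day 10. Zfp534 had 45.1 and 2.70, Gm13154 42.0 and 2.69 and Gm13242 28.3 and 1.37, log2 folds from -3.91 (-4.10 to -3.73) to -4.28 (-4.49 to -4.07). The stretch was looked at as a whole after these values were seen. It held 17 genes, 15 of which passed the filter, and of these 14 were at least 2-fold lower and 0 higher, with a median of -3.85, against 9.86% lower over all genes. Since it was picked for its low folds, nothing is read from this count. Without the GC trend the median was -2.33, and GC content was 36.1% in Gm13242 against a median of 50.4% over all genes. In the shLuc libraries these genes had been higher at 24 h, with an RPKM of 153 for Gm13242, 205 for Rex2, 210.4 for Zfp534 and 116 for Gm13154. In the shLuc ES cells they lay below day 6, at 9.92 for Gm13242, 16.4 for Rex2, 7.89 for Zfp534 and 5.32 for Gm13154. Their sequences resemble each other, so reads can be split among them in ways that the counts do not show. The 12 lowest also held the uncharacterized transcript 2410007B07Rik (45.2 and 1.94) and the microtubule protein Mtap7d3 on chromosome X (21.9 and 1.26).

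Genes of the Wnt list, which holds ligands, amplifiers, inhibitors and targets, were mostly higher. Of 20 members that passed, 13 of them through day 10 alone, 16 were at least 2-fold higher and 1 lower (median 2.49, and 1.92 without the trend). Without the trend 12 were higher. The inhibitors Frzb, Dkk1 and Sfrp5 were among the 16. Wnt8b, a ligand of the forebrain margin (chromosome 19, 44567962 to 44588763), had 9 reads at day 6 and 1923 at day 10, an RPKM of 0.0413 and 18.7. Wnt1, of the dorsal midbrain and hindbrain, had 0 reads and an RPKM of 11.8, Wnt7b 0.487 and 13.3 and the amplifier Rspo2 0.0185 and 15.6. The nuclear factor Tcf7 was lower (57.8 and 19.7).

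Of 17 BMP and TGF-beta genes 13 were higher and 1 lower (median 2.67, and 1.85 without the trend). Of the 17, 8 passed through day 10 alone, and the median over the 24 measured members was 2.09, with 18 higher and 1 lower. The ligands Bmp5 (0.214 and 9.14) and Bmp6 (0.225 and 7.93), the antagonist Nog (0.556 and 9.68) and the target Id3 (11.99 and 146) had log2 folds of 4.88, 4.63, 3.90 and 3.60. Nodal, the ligand of epiblast and streak, was lower (7.30 and 2.30). Of 13 Notch genes 8 were higher and 0 lower (median 1.50, and 0.62 without the trend). Of the 13, 8 passed through day 10 alone, and the median over the 17 measured members was 1.48, with 9 higher and 0 lower. Hes5, the Notch target of neural progenitors, had 0.158 and 8.41, the glycosyltransferase Lfng 0.814 and 5.69, the ligand Dll1 1.18 and 4.62 and the receptor Notch3 5.56 and 19.9. Notch3 came to 0.61 from 1.82 without the trend. Of 19 FGF, IGF and hedgehog genes 10 were higher and 1 lower (median 1.13, and 1.19 without the trend), led by Igf2, Ihh, the binding protein Igfbp5 (4.46 and 70.9) and the hedgehog inhibitor Hhip (0.130 and 3.03). Spry2, a target and inhibitor of FGF signaling, was lower (70.8 and 26.3). For these 3 groups the shares over all genes were 27.3% higher and 9.86% lower.

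Imprinted growth genes reached some of the highest levels. Of 21 members 14 were at least 2-fold higher and 2 lower, against 27.3% and 9.86% of all genes. The median of the 21 was 2.31 (2.34 over those with a known GC content, without the trend). Igf2, the fetal growth factor (chromosome 7, 149836673 to 149852721), had an RPKM of 37.4 and 1214, a log2 fold of 5.02 (4.99 to 5.05). It ranked 1599th of 22878 genes at day 6 and 3rd at day 10. H19, the untranslated RNA next to it (chromosome 7, 149761434 to 149764048), had 6.67 and 209. Dlk1, a Delta-like surface protein, had 0.625 and 79.6, and the zinc finger factor Plagl1, which acts on several of these loci, 1.98 and 74.2. Magel2 (5.52 and 1.92) and Snrpn (94.2 and 39.1), neighbors in the Prader-Willi region, were lower, and the log2 fold of Snrpn came to -0.89 from -1.27 without the trend.

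Mir675 and Mir1903 were also among the 12 highest, from 5 and 0 reads at day 6 to 416 and 87 at day 10. Both lie inside longer genes that moved with them, Mir675 in H19 and Mir1903 in Nrp1 (1.56 and 65.6), and reads of the longer RNA cannot be told apart from theirs. The mature forms cut from Mir675 are shown, from RefSeq (GRCm38.p6), with the seed that pairs with targets (bases 2 to 8) in capitals.
miR-675-5p: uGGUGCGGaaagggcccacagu
miR-675-3p: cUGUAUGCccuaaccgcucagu
The 2 seeds differ. The polyA RNA of these libraries measures the host RNA and not the mature forms.

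Trophoblast and epithelial genes were mixed. Of 11 trophoblast genes 8 were higher and 2 lower (median 2.09, and 2.23 without the trend), led by Hand1, Cdx2, the keratin Krt8 (13.1 and 155) and Plac1 (1.33 and 9.17), with Eomes and Tfap2c (15.3 and 6.10) lower. Of the 11, 6 passed through day 10 alone. Over the 19 measured members the median was 0.67, with 8 higher and 3 lower, against 5096 and 1767 of all 22878 genes. Elf5, Gcm1 and the placental prolactins, which mark trophoblast more strictly, did not pass. Of 21 epithelial genes 7 were higher and 4 lower, against 27.3% higher and 9.86% lower over all genes. The median of 0.45 changed sign to -0.19 without the trend. The simple epithelium keratins Krt8, Krt19 (9.06 and 68.6) and Krt18 (56.1 and 211) and N-cadherin, Cdh2 (8.34 and 33.9), had the highest folds. Dsp, Krt7 and Cldn7 were the other higher members. Epcam (163 and 37.1) and E-cadherin, Cdh1 (216 and 51.4), both also of pluripotent cells, and the epithelial regulators Esrp1 (31.6 and 11.997) and Grhl2 (5.69 and 2.28) were lower.

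Most replication and cell cycle genes lay within 2-fold, as did 62.8% of all 10779 genes. Of 39 replication and cell cycle genes 33 were within 2-fold, 3 higher and 3 lower (median -0.04, and -0.08 without the trend). The D cyclins Ccnd2 (3.71 and 81.7) and Ccnd3 (18.9 and 104) and E2f1 (5.50 and 11.2) were higher and Bub1 (82.8 and 31.2), Pcna (232 and 104) and Gins1 (31.6 and 15.2) lower. E2f1, Bub1, Pcna and Gins1 were under 2-fold without the trend. Of 19 cell cycle inhibitors and p53 targets 7 were higher and 1 lower (median 0.54, and 0.43 without the trend). Over all genes 27.3% were higher and 9.86% lower. The imprinted inhibitor Cdkn1c (10.8 and 111), Gadd45g (0.989 and 6.87), Cdkn2a (2.73 and 12.5) and Phlda3 (4.42 and 18.3) were higher and Gadd45a (40.2 and 11.7) lower.

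In metabolism, 20 of 26 glycolysis and hypoxia genes lay within 2-fold (median -0.11, and -0.42 without the trend), against 62.8% of all genes. The enzyme Pfkl (31.5 and 97.5) and the transporters Slc2a3 (279 and 721) and Slc16a3 (38.4 and 82.8) were higher, and Adm (9.21 and 2.95), Pfkp (41.4 and 18.9) and Egln3 (45.1 and 22.2) lower. Without the trend Pfkl and Slc16a3 were under 2-fold, and Slc16a3 was so with TMM as well. Of 19 cholesterol synthesis genes 5 were higher, a share close to the 27.3% of all genes, and 0 lower (median 0.65, and 0.47 without the trend), among them the sterol carrier Stard4 (7.37 and 29.2), Mvk (2.94 and 11.7), Mvd (11.6 and 31.2) and the regulator Srebf2 (27.6 and 70.9). Of these 4, Mvd and Srebf2 were under 2-fold without the trend. Respiratory chain genes had a median of -0.00 (0.09 without the trend), with 2 of 27 higher and 6 lower, against 27.3% and 9.86% of all genes. The 35 ribosomal protein genes held 5 higher and 8 lower members (median -0.60, and -0.22 without the trend). The other 22 lay within 2-fold, a share close to the 62.8% of all genes, of which 27.3% were higher and 9.86% lower. Among the lower members of both groups, Uqcrb (122 and 37.9), Cycs (17.1 and 6.06), Cox7c (130.01 and 58.0), Cox6c (112 and 52.3), Rpl39 (508 and 173), Rps24 (466 and 163) and Rps6 (389 and 154) lost their place past 2-fold without the trend except Rps6. The higher ones were Ndufv1 (6.92 and 34.0) and Uqcrc1 (27.7 and 68.5), and Rps14 (87.3 and 413), Rps19 (42.0 and 146), Rps2 (50.8 and 156), Rpl18 (94.0 and 219) and Rpl8. Of those given with values, Uqcrc1 and Rpl18 also lay under 2-fold without the trend.

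In the shSmyd5 EBs, which are separate cultures with their own libraries, 3686 of 10211 genes (36.1%) were at least 2-fold higher at day 10 than at day 6 and 925 (9.06%) lower. Of the 2944 genes higher in shLuc, 2309 (78.4%) were at least 2-fold higher by fold in shSmyd5 and 14 at least 2-fold lower, and of the 3686 higher in shSmyd5, 2103 (57.1%) were among those higher in shLuc. Of the 1063 lower in shLuc, 539 (50.7%) were at least 2-fold lower in shSmyd5 and 15 higher, and of the 925 lower there 505 (54.6%) were among those lower in shLuc. With 1 library each, the difference between the lines has no test.

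For these programs the shSmyd5 medians over every measured member, whatever its level, lay on the same side as in shLuc. They were 9.44 in shLuc and 5.65 in shSmyd5 for the globins, 3.39 and 2.46 for the secreted carriers, and 2.84 and 1.88 for the erythroid regulators. Endothelial genes had 2.74 and 2.35, mesenchyme 3.79 and 3.26 and sarcomere genes 1.07 and 2.61. Afp had an RPKM of 59.5 and 626 in shSmyd5. Hbb-bh1 had 0 and 177, and Col3a1 0 and 32.4. For the chromosome 4 stretch the shSmyd5 median was taken over the 15 genes that passed on their shLuc levels alone, and was -2.60. That stretch had been picked for its low shLuc folds.

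Neural progenitor regulators differed in their values. The 26 that passed did so on their shLuc levels, 17 of them through shLuc day 10 alone, so their medians of 3.71 in shLuc and -0.02 in shSmyd5 are no fair comparison of the lines. Over the 36 measured members, whatever their level, the median was 2.85 in shLuc, with 29 higher and 5 lower, and 0.0049 in shSmyd5, with 7 higher and 7 lower. Zic1 had an RPKM of 0.607 and 0.248 in shSmyd5, against 0.171 and 27.5 in shLuc. Wnt8b had 0 and 0.0948, Wnt1 0 and 1.05, Rspo2 was listed at 0 on both days, Fezf2 had 0 and 0.139, Emx2 0.855 and 0.764, and Hes5 0.110 and 0.101. Pax6 had 0.314 and 0.568, below its shLuc level on both days. The naive pluripotency list had medians of -2.61 and -0.86, with Nanog at 14.7 and 10.4 and Pou5f1 at 35.2 and 17.1 in shSmyd5, so that the shSmyd5 EBs had the lower value already at day 6. These comparisons of the lines rest on 1 culture each.

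**Figure D5:**
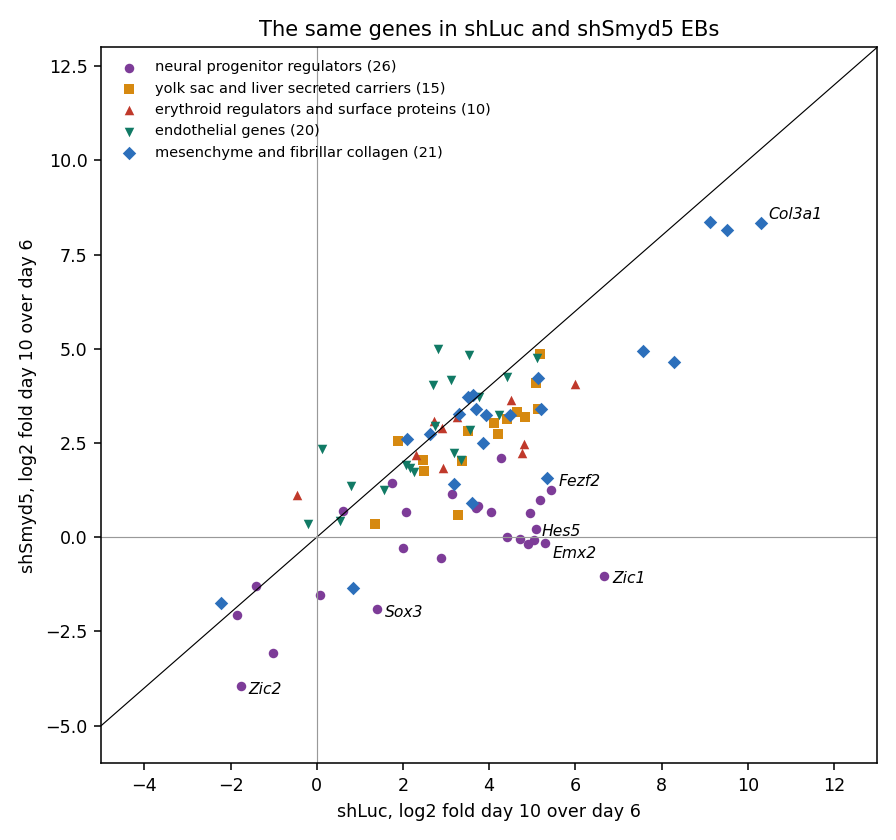
Each point is a gene with an RPKM of at least 3 in the shLuc EBs of day 6 or day 10, placed by its log2 fold of day 10 over day 6 in shLuc across and in shSmyd5 up, for 5 gene lists with the number of members in brackets, and the diagonal marks equal folds. Carriers, erythroid, endothelial and mesenchyme genes lie mostly in the upper right, while most neural progenitor regulators, among them Zic1, Emx2 and Hes5, lie far to the right and near or below 0 in shSmyd5.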

How the data were processed

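PolyA RNA of R1 mouse ES cells and their EBs was sequenced with 1 library per condition. Single-end reads had been mapped by the authors to mm9 (CASAVA and Bowtie2 in the submitters' notes, versions not given in the sources used here) and deposited, for 29257 RefSeq transcripts, whole read counts and RPKM. The deposited counts are not normalized, and the authors scaled RPKM to transcript length and library size. In 100% of values over 200 reads RPKM lay within 1% of the value the reads give. The double-stranded cDNA keeps no strand.

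For each of 22878 symbols (4019 with several transcripts) the transcript with the highest mean reads over the 10 libraries was kept. Reads in genes were 43377815 (shLuc day 6) and 22131320 (day 10), and 3895537 to 43377815 over all libraries. In a transcript of 2000 bases 1 read was an RPKM of 0.00774 at day 6 and 0.0164 at day 10. Each library has its own run label, so run and day cannot be told apart. GENCODE M1 held 1 gene for 21527 symbols.

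A gene was called at a fold of 2 and an RPKM of at least 3 in either library, with a pseudocount of 0.1. No test was made. Intervals are exact binomial at 95%. GC and length trends were removed with a spline (mgcv). The genes named are the markers, the 12 highest and 12 lowest folds of genes that reach an RPKM of 10, up to 4 members each way past 2-fold in each of 37 lists, and Smyd5. Members and lists were chosen with earlier results of these data known. Other settings tried were a pseudocount of 1 or 0.01, 3 RPKM filters, other scalings (edgeR TMM, DESeq2, median), summed transcripts, folds without the GC trend, and an edgeR exact test with an assumed dispersion. Folds and intervals were tested on simulated reads that held counting error alone. That check cannot speak to the spread between cultures, the GC trend or the scaling. Analyses ran in R 4.3.3 with edgeR 4.0.16, DESeq2 1.42.0 and mgcv 1.9.3, and in Python 3.11.15 with scipy 1.17.1, pandas 2.3.3, matplotlib 3.10.9 and numpy 2.4.6. ChIP-Seq data were not analysed here. Some genes that the rule names are not reported here.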

Additional observations from a re-analysis of the deposited data

Results flagged for a closer look

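For 4 of the named genes the log2 fold of day 10 over day 6 was past 2-fold with opposite signs in shLuc and shSmyd5, with the counting interval past 0 in each line. The difference was not tested, since each line had 1 library per day. Zic1 had a log2 fold of 6.67 in shLuc and -1.02 in shSmyd5. Sox3 had 1.40 in shLuc and -1.91 in shSmyd5, where its RPKM was 2.14 and 0.496. Elf3 had -1.07 in shLuc and 1.51 in shSmyd5 (5.47 and 15.7). Ebf1 had -2.33 in shLuc and 1.95 in shSmyd5, where its levels were low on both days (0 reads and an RPKM of 0.285).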

How the results depend on the processing

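The counts of higher and of lower genes past 2-fold (2944 and 1063) stayed within 1.5 times for a pseudocount of 1 or 0.01, an RPKM of at least 1, folds relative to the median and reads summed over transcripts. They were 1584 and 705 at an RPKM of at least 10, 5096 and 1767 with no filter, 1829 and 718 without the GC and length trend, 1102 and 607 when passing the edgeR exact test at an assumed coefficient of variation of 0.2 was also required, and 164 and 31 with 0.4. TMM and DESeq2 size factors gave 1684 and 1706 lower genes, with 2159 and 2139 higher. Of 189 named genes past 2-fold, 5 were no longer so with TMM, 6 with DESeq2 size factors, 6 with a pseudocount of 1, and 25 of the 183 with a known GC content without the trend. Sox3 and Sp5 changed sign there (-0.082 and -0.16), and the neural crest median did so at an RPKM of at least 10 (-1.32), where the stricter filter leaves fewer members. The neuronal median of -0.90 became positive at an RPKM of at least 1 (0.45), with no filter (0.84) and with summed reads (0.16), and the macrophage median of 0.78 became -1.36 with summed reads. The medians of both lines over every measured member were added after seeing the data. No paired analysis was possible because each day had 1 library. Depth limits the low genes, and with no replicate the spread between cultures is unknown, so none of these counts says how many genes would differ again.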
